A study of Mus musculus with 140 samples.

Results

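The heat shock protein (Hsp) and J-domain (Dnaj) chaperone genes were described here by the places where TDP-43 and the RNA mark N6-methyladenosine (m6A) were found on their transcripts in mouse brain. Members were the protein-coding GENCODE vM21 genes whose symbols begin with Dnaja, Dnajb, Dnajc, Hspa, Hspb, Hspd1, Hspe1, Hsp90 or Hsph1, leaving out 1 Dnajc gene. They were 73 of 21951 protein-coding genes: 4 Dnaja, 13 Dnajb, 27 Dnajc, 13 Hspa, 10 Hspb, Hspd1 with Hspe1, 3 Hsp90 genes and Hsph1. The Hspb prefix also takes Hspb11, Hspbap1 and Hspbp1, which do not encode small heat shock proteins. Both assays were eCLIP, in which RNA fragments bound by an antibody are sequenced beside an input library, and were done in cortex and striatum of R6/2 mice and of non-transgenic (NT) littermates at 3 months. R6/2 mice carry a fragment of human huntingtin with an expanded CAG repeat under the human huntingtin promoter, so they model the fragment and not the full-length gene. Every combination of assay, region and genotype comprised 8 libraries, split between 4 male and 4 female mice. A further m6A experiment compared 3 C57Bl/6J males with a TDP-43-lowering antisense oligonucleotide (ASO, 500 ug into the ventricles at 5 weeks) with 3 males injected with PBS, collected 2 weeks later and labelled as aged 2 months. The labels of that experiment give cortex as the tissue, whereas the treatment protocol names striatum, and the labels were followed.

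Chaperones bind unfolded stretches of other proteins and let them fold, move or be degraded. The Hspa proteins (Hsp70) do this in cycles of ATP hydrolysis, which J-domain proteins start and which nucleotide exchange factors, among them Hsph1 and Hspa4 of the Hsp110 branch, complete. Hsp90 acts later on partly folded clients, the Hspb proteins hold unfolded proteins without ATP, and Hspd1 with Hspe1 forms the folding chamber of mitochondria. In Huntington's disease models, chaperones of these families bind expanded polyglutamine and limit its aggregation. TDP-43 is a nuclear RNA-binding protein that prefers UG repeats, and m6A is placed on adenosines in contexts such as GGACU, often near the stop codon.

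The unit throughout was the cluster, a stretch where IP reads pile up. An enriched cluster had a p of 0.001 or less for IP over input, and a site was a stretch that enriched clusters covered in 4 or more of the 16 libraries of an assay and region. The windows below are shown because they lie at sites found in all 8 NT libraries and hold TGTGT, a core of the TDP-43 preference, in capitals. They are 25 bases of the GRCm38 (mm10) genome on the strand of the transcript, from cortex.
Hsp90b1, chr10:86705311-86705335, minus strand, coding sequence: gggcctctgcTGTGTcctgctgacc
Hspa4, chr11:53265967-53265991, minus strand, coding sequence: tggaagagtaTGTGTatgagatgag
Hsph1, chr5:149619922-149619946, minus strand, coding sequence: cgtggaggagTGTGTatatgagttc
Dnajc27, chr12:4108686-4108710, plus strand, 3′ UTR: atgagaggtgTGTGTggtgctgtca
Dnajc6, chr4:101640967-101640991, plus strand, 3′ UTR: ggattgtgtaTGTGTgggttttttg
Dnajb2, chr1:75245329-75245353, plus strand, 3′ UTR: ggcagtgggcTGTGTaggtagggca
The Hspa4, Dnajc27, Dnajc6 and Dnajb2 sites were also enriched in 8 of 8 R6/2 cortex libraries, the Hsph1 site in 7 and the Hsp90b1 site in 4. The fold of IP over input at these sites was highest on Dnajb2, with an NT median of 4.78 on the log2 scale, and lowest on Hsph1, with 2.43.

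For m6A, the windows show GGACT, the commonest form of the methylation motif, in capitals, at sites enriched in all 8 NT libraries of cortex and also all 8 of striatum.
Dnajb1, chr8:83608330-83608354, plus strand, 5′ UTR by the centre of the site: ccatgggcaaGGACTactatcagac
Dnajc6, chr4:101508042-101508066, plus strand, 5′ UTR: ctgcgttgagGGACTtcgcccccgg
Dnajc15, chr14:77826375-77826399, minus strand, 3′ UTR: tgatgctaaaGGACTgtacataccg
Hspa13, chr16:75757389-75757413, minus strand, 3′ UTR: tagctcttaaGGACTtgaagaactg
Dnajc16, chr4:141762429-141762453, minus strand, 3′ UTR: agacttgtccGGACTcctgtcagta
These 5 sites were enriched in 8 of 8 R6/2 cortex libraries as well. Their NT median folds on the log2 scale ran from 1.16 on Dnajc15 to 3.99 on Dnajc16. The 5′ UTR label of Dnajb1 holds for the centre of its site alone. In its window an ATG comes before GGACT, so the marked motif itself may lie in coding sequence.

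The 70 IP libraries listed 133124 to 260597 clusters, of which 4926 to 98932 were enriched, and 27 to 490 of the enriched clusters per library lay on the 73 chaperone genes. TDP-43 striatum had the fewest enriched clusters (4926 to 24415), and in 5 of its 8 R6/2 libraries at least 30% of listed clusters were intronic, which no NT library there reached. In the ASO experiment 97.8% of the intervals were shared by the 3 libraries of a treatment and 0.947% by both treatments. The labelled regions were checked on marker genes. In NT m6A libraries the summed clusters of 9 medium spiny neuron markers were 164 to 210 in striatum and 58.2 to 70.8 in cortex, and those of 6 cortical excitatory markers 20.1 to 42.9 and 73 to 87.9. The ASO experiment had 87.5 to 94.6 and 92.8 to 105 for these lists.

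On NT transcripts the 2 assays picked out different chaperone families. Per kb of exon, TDP-43 clusters were densest on Hsp90, with 2.63 ± 0.348 enriched clusters in cortex and 1.90 ± 0.254 in striatum (mean ± SD, n = 8), and next on Hsph1, with 2.00 ± 0.407 and 1.27 ± 0.369. All protein-coding genes together had 0.339 in cortex and 0.150 in striatum, and all 73 members 0.629 ± 0.0560 and 0.268 ± 0.0413. The Hspb family was at the other end, with 0.0127 ± 0.0178 in cortex and 0 in all 8 striatum libraries. Between them lay Hspa (0.809 ± 0.0789), Dnaja (0.527 ± 0.126), Dnajc (0.523 ± 0.105), Dnajb (0.418 ± 0.0617) and Hspd1 with Hspe1 (0.407 ± 0.257) in cortex, of which Dnaja and Dnajc, and Dnajb and Hspd1 with Hspe1, differed by less than their SDs. m6A clusters were instead densest on Hspa, with 1.17 ± 0.106 per kb in cortex and 1.10 ± 0.135 in striatum, and on Dnajb, with 0.916 ± 0.0804 and 1.03 ± 0.162. Hsp90 had 0.498 ± 0.150 and 0.709 ± 0.250, where the mean of all protein-coding genes was 0.639 and 0.707, and Hspb again had few (0.382 and 0.351). This order did not hold in the 3 PBS libraries of the ASO experiment. There Hsp90 had 2.02 ± 0.906 m6A clusters per kb, Hspa 1.94 ± 0.0195 and all protein-coding genes 0.875. These densities are descriptions, since longer or more abundant transcripts can give more clusters and RNA levels were not used here. They count fragments rather than separate places. In NT cortex 45.2% to 51.9% of enriched m6A clusters and 19.5% to 23.5% of enriched TDP-43 clusters began where another ended. With PBS in the ASO experiment, the m6A clusters of Hspa5 formed 1 joined stretch per library, and those of Dnajb1 formed 5.

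**Figure D1:**
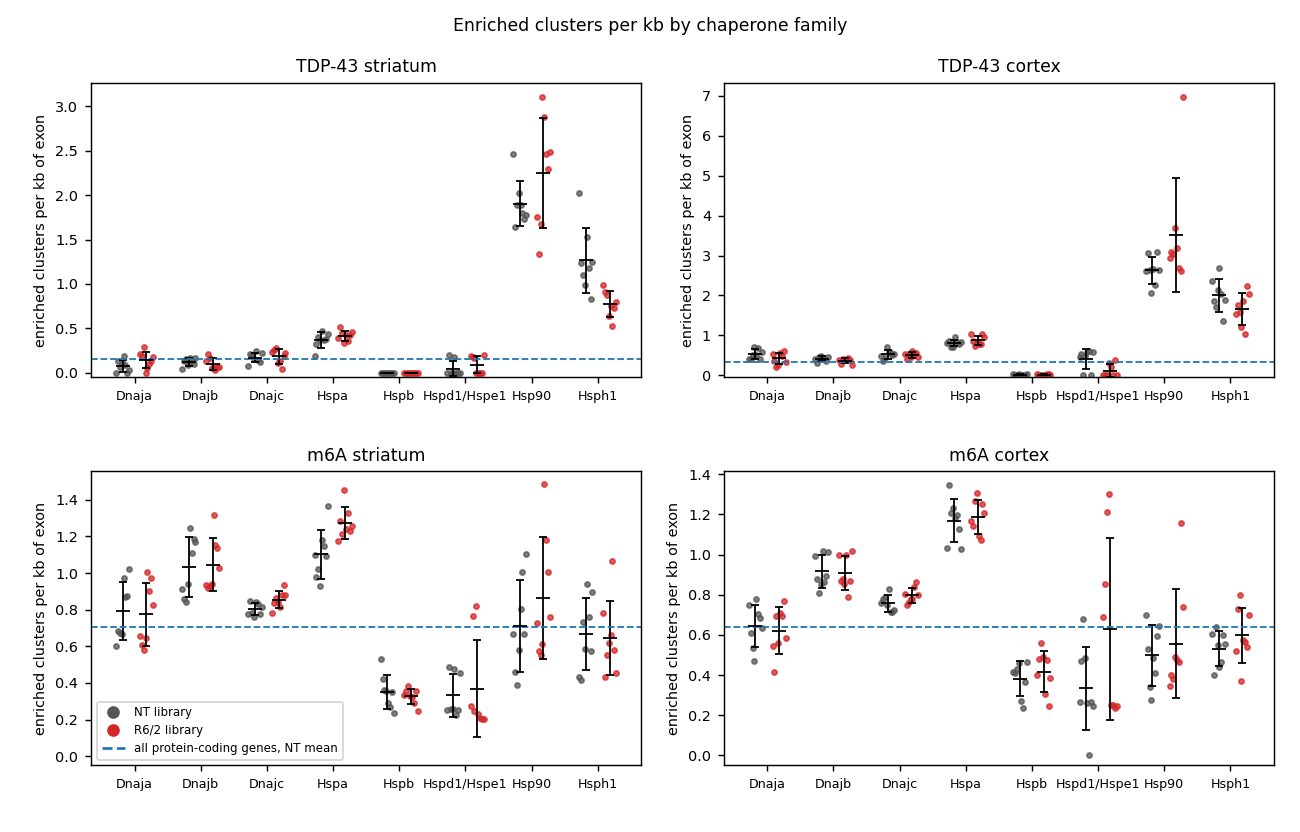
Enriched clusters per kb of exon for each chaperone family in TDP-43 and m6A libraries of striatum and cortex (vertical axes differ). Points are libraries (NT grey, R6/2 red, 8 each), black bars are mean and SD, and the dashed line is the NT mean of all protein-coding genes. Hsp90 and Hsph1 stand highest for TDP-43, Hspa highest for m6A, and Hspb lowest for TDP-43.

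Among the Hsp90 genes, Hsp90b1, the paralog of the endoplasmic reticulum, was a TDP-43 target with almost no m6A in NT libraries. Its normalized number of TDP-43 clusters in NT cortex was 11.03 at the lowest, 14.9 at the median and 16.1 at the highest, and in NT striatum 8.01, 10.8 and 12.3. m6A clusters were found in 1 of 8 NT striatum libraries and in 0 of 8 NT cortex libraries. With PBS in the ASO experiment, Hsp90b1 had 0, 0.983 and 8.11 m6A clusters and Hsp90ab1 14.4, 17.7 and 21.6. Of the Hsp90b1 clusters, 22.9% lay where another gene of the same strand overlaps. The cytosolic Hsp90ab1 carried both, with 9.05, 10.6 and 15.3 TDP-43 clusters and 2.79, 5.09 and 7.69 m6A clusters in NT cortex (lowest, median and highest). The stress-inducible Hsp90aa1 had 1.95, 2.67 and 3.85 TDP-43 clusters there and m6A clusters in 2 of 8 NT cortex and 0 of 8 NT striatum libraries.

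Of the nucleotide exchange factors, Hspa4 and Hsph1 were dense in TDP-43 clusters and Hspa4l was not. Hspa4 had 14.8, 15.7 and 19.6 TDP-43 clusters in NT cortex and Hsph1 had 9.81, 14.2 and 19.5. Per kb Hspa4 had 2.98 and Hsph1 2.00 ± 0.407. Their m6A clusters in NT cortex were 2.2, 3.01 and 4.36 for Hspa4 and 2.91, 4.01 and 4.65 for Hsph1. Hspa4l had 0.328 TDP-43 and 0.263 m6A clusters per kb in NT cortex, each below the mean of all protein-coding genes.

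The Hsp70 genes split. Hspa5, the Hsp70 of the endoplasmic reticulum (BiP), was dense in both assays, with 6.70, 7.95 and 10.9 TDP-43 and 13.2, 16.6 and 21.0 m6A clusters in NT cortex. The mitochondrial Hspa9 had 6.43, 7.07 and 7.84 TDP-43 clusters and m6A clusters in 2 of 8 NT cortex libraries. In striatum its m6A clusters were found in at least 4 of 8 NT libraries. The stress-inducible Hspa1a and Hspa1b showed the reverse of Hspa9 in cortex, with m6A clusters in all 8 NT libraries. They had no enriched TDP-43 cluster in any NT or R6/2 library of either region. These paralogs are nearly identical, so their reads may have been split or lost and their values are uncertain. Hspa8, the constitutive Hsc70, varied widely, from 0 to 6.49 TDP-43 clusters and from 0 to 6.79 m6A clusters among NT cortex libraries. snoRNA genes lie in its introns, and 22.0% of its clusters lay where another gene of the same strand overlaps.

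J-domain genes gave the extremes of the m6A range. Dnajb1, a main cytosolic partner of Hsp70 in stress, had the most m6A clusters per kb in both regions (4.79 in cortex and 4.60 in striatum), with 10.7, 15.3 and 23.1 clusters in NT cortex and 0 to 1.61 TDP-43 clusters. Dnajc30, a mitochondrial J protein, came second with 4.37 and 4.35 per kb and had no enriched TDP-43 cluster in any of the 32 TDP-43 libraries. Dnajb9, a J protein of the endoplasmic reticulum, had 2.82 and 3.09 per kb. Dnajc7 and Dnajc27 had the opposite profile in cortex. Dnajc7, which joins a J domain to repeats that bind Hsp70 and Hsp90, had 5.74, 9.50 and 17.4 TDP-43 clusters in NT cortex and m6A clusters in 1 of 8 libraries. Dnajc27, a small GTPase with a J domain, had 7.84, 13 and 14.6 TDP-43 clusters and m6A clusters in 2 of 8 there. In striatum Dnajc27 had m6A clusters in at least 4 of 8 NT libraries. Dnajc6, the neuronal auxilin that uncoats clathrin vesicles, was high in both, with 5.60, 9.60 and 12.2 TDP-43 and 12.0, 13.7 and 15.1 m6A clusters. Dnajb6, which is known to hold back polyglutamine aggregation, had few: TDP-43 clusters in 2 of 8 NT cortex libraries and m6A clusters in 1 of 8, at 4 of 8 in striatum.

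Of the small heat shock protein genes, Hspb8 had an m6A cluster in 8 of 8 NT libraries of both regions, Hspb1 in 7 of 8 in striatum and 3 of 8 in cortex, and Hspb6 in 8 and 7. None of these had an enriched TDP-43 cluster in NT or R6/2 libraries. Hspd1 (Hsp60) had TDP-43 clusters in 6 of 8 NT cortex libraries, at 2.47 or fewer, and m6A clusters in 7 of 8. Its partner Hspe1 had no enriched cluster of either kind in NT or R6/2 libraries.

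**Figure D2:**
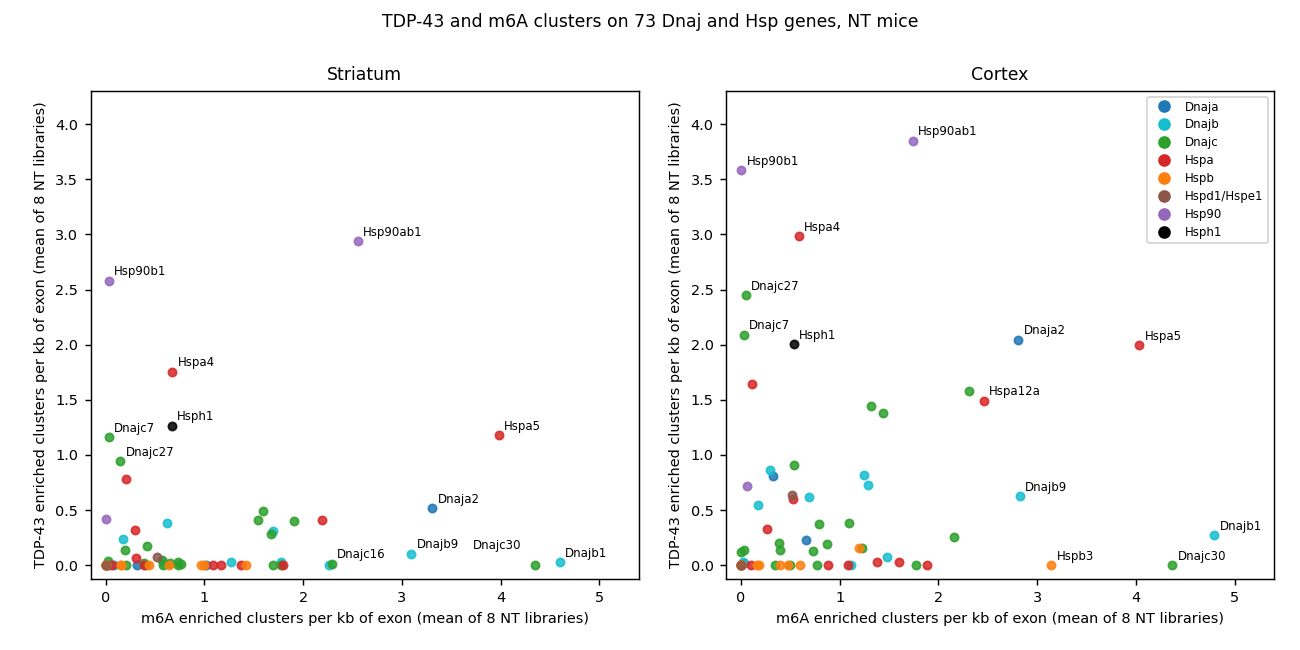
Enriched m6A (horizontal) and TDP-43 clusters (vertical) per kb of exon for each of the 73 genes, mean of 8 NT libraries, in striatum and cortex, coloured by family. Hsp90b1, Hspa4 and Dnajc27 lie high on the left, Dnajb1 and Dnajc30 low on the right, and Hspa5 and Hsp90ab1 are high in both.

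Counting a gene as marked when at least 4 of 8 NT libraries of a region had an enriched cluster, 23 members were marked by TDP-43 in striatum, 37 by TDP-43 in cortex, 52 by m6A in striatum and 47 by m6A in cortex. Over both regions, 33 members (45.2%) carried both marks, against 21.9% of all protein-coding genes. TDP-43 alone marked 4 (5.48% against 2.38%): Dnajc3, Dnajc7, Hsp90aa1 and Hsp90b1. m6A alone marked 19 (26.0% against 28.4%), among them 4 Hspb genes of the small heat shock class, Dnajb6, Dnajc30, Hspa1a, Hspa1b, Hspa2 and Hspa13. The remaining 17 (23.3% against 47.3%) had neither, and 10 of these had no enriched cluster in any of the 70 libraries: Dnajb13, Dnajb7, Dnajb8, Dnajc19, Dnajc22, Dnajc5g, Hspa1l, Hspb11, Hspb7 and Hspb9. For Dnajb3 and Dnajc25 every cluster lay where another gene of the same strand overlaps, so these were uncertain.

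The families also differed in where on the transcript the clusters lay. In NT cortex, 93.4% of TDP-43 clusters on Hsp90 genes and 76.3% on Hsph1 were in coding sequence, whereas 66.4% of those on Dnajb and 57.9% of those on Hspa were in the 3′ UTR. m6A clusters on Dnaja (84.2%) and Dnajc (63.2%) were mostly in the 3′ UTR. In the 5′ UTR lay 33.3% of the 42 m6A clusters on Hsp90 and 28.2% of the 71 on Hspb, with the rest of Hsp90 in coding sequence. These clusters were pooled over 8 libraries. The 5′ UTR shares were 25.4% of 63 and 36.4% of 66 in NT striatum, and 14.1% of 71 and 24.4% of 45 with PBS. Over sites, members had 12.2% of m6A sites in the 5′ UTR in cortex and 12.4% in striatum, and all other sites 9.31% and 9.65%.

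Motif content on member sites was close to that of other sites for m6A. GGACT (on the transcript strand) was in 51-base windows of 19 of 131 member sites in cortex (14.5%, other sites 14.5%) and 21 of 145 in striatum (14.5%, other sites 14.4%). TGTGT was in 23 of 244 TDP-43 member sites in cortex (9.43%, other sites 7.34%) and 11 of 111 in striatum (9.91%, other sites 7.11%). TDP-43 sites on chaperone genes met an m6A site of the same region in 46 of 244 cases in cortex (18.9%, other genes 21.9%) and 19 of 111 in striatum (17.1%, other genes 23.5%). These shares are descriptions over sites, several of which share a gene.

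NT cortex and NT striatum were compared first, because the regions set the baseline for the R6/2 comparison. Numbers of clusters were normalized over the 16 NT libraries of an assay, so they differ from the values given above within a region. For TDP-43, 21 members had enough clusters to be tested and 10 were called at an adjusted p under 0.05 in limma (all genes 52.2% called), 9 higher in cortex and 1 lower. Of all genes, 1349 were called higher in cortex and 282 lower. Cortex libraries had more enriched clusters (28893 to 54919) than striatum libraries (4926 to 24114), the median change of all 3125 genes was 0.66 on the log2 scale, and that of the members 0.62. Under quantile normalization, which removes this shift, 4 members were called higher and 4 lower. Dnajb5, a J protein of the cytosol, changed most: 2.07, 3.71 and 7.14 clusters in cortex and 0, 0 and 1.03 in striatum, without overlap (log2 change 2.71, SE 0.34, adjusted p 6.28e-06, and 1.24 under quantile normalization). Its cortex libraries alone met the minimum for testing, which favours a change in this direction. Its striatum values lay at or near 0, so the size of the change depends on the 0.5 added before taking log2. Hspa12a, a divergent Hsp70, had 8.54, 10.7 and 14.9 against 0, 5.84 and 7.28 (1.32, SE 0.42, adjusted p 0.0144), and Dnajc6 4.40, 7.88 and 10.4 against 0, 3.99 and 5.89 (1.37, SE 0.41, adjusted p 0.0102, with overlap). Dnajc14 rose by 1.22. These 4 were also called higher under quantile normalization. Hspa4l (1.61), Dnajc21 (1.54), Dnaja2 (1.48), Dnajc18 (0.68) and Dnajc27 (0.63) were not called under quantile normalization. Hsp90b1 was the gene that went the other way, with 10.02, 12.1 and 13.9 clusters in cortex and 11.7, 15.1 and 17.9 in striatum (−0.28, SE 0.11, adjusted p 0.0364, and −0.50 under quantile normalization). It was not called with the replicate block (adjusted p 0.0676), without a filter (adjusted p 0.0967), with touching clusters joined (−0.16, adjusted p 0.339) or over all listed clusters (−0.0892, adjusted p 0.404).

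For m6A, where both regions had similar numbers of enriched clusters, 40 members were tested and 5 called (all genes 18.3%), with a median of 0.02 for the members and −0.02 for all genes. Of all genes, 791 were called higher in cortex and 864 lower. Hspb3, a small heat shock protein best known from muscle, had 1.89, 2.26 and 3.31 clusters in cortex and 0, 0.851 and 1.93 in striatum (1.53, SE 0.32, adjusted p 0.00122). Here too the cortex libraries alone met the minimum for testing. Hspa1b (1.35, adjusted p 0.00398), Hspa1a (0.88, adjusted p 0.00735) and Dnajc6 (0.40, adjusted p 0.00584) were higher in cortex as well. Dnajc6 had 12.1, 13.9 and 15.4 clusters in cortex and 8.68, 10.1 and 15 in striatum, and its value fell to 0.04 when touching clusters were joined before counting. Dnajb3, whose clusters cannot be told from those of an overlapping gene, was lower in cortex (−0.66, adjusted p 0.0395) but was not called with the replicate block (adjusted p 0.0870) or under quantile normalization (adjusted p 0.0616). Dnajc6 was thus called higher in cortex in both assays.

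The R6/2 comparison asked whether TDP-43 binding or m6A on these transcripts differed with the huntingtin fragment. Few chaperone genes passed in any of the 4 assays and regions. In TDP-43 striatum 17 members were tested and 1 called (all genes 14.3%), with a median change of 0.16 against −0.05 over all genes. This was Hsph1, with 6.00, 8.77 and 14.7 clusters in NT and 3.86, 5.62 and 7.19 in R6/2 libraries. The ranges overlapped, and it fell by 0.64 on the log2 scale (SE 0.17, adjusted p 0.0202). It was called without each library in turn. The NT value of 14.7 was that of NT male 1, with 6 clusters before scaling and the fewest enriched clusters of the set (4926). With the intronic share as a covariate Hsph1 was at −0.40 (adjusted p 0.287), and without the 5 libraries of at least 30% intronic clusters at −0.42 (adjusted p 0.371). Those 5 were R6/2 male 4 and all R6/2 females, so that setting compared the remaining R6/2 males with NT mice of both sexes. In bases covered by clusters Hsph1 was at −0.26 (adjusted p 0.234). Medium spiny neuron markers summed to 63.3 to 128 clusters in NT and 28.3 to 43.9 in R6/2 striatum, with 8 and 7 of 9 markers found in at least 4 of 8 libraries and Tac1 at 0. In bulk tissue fewer such cells, less RNA per cell and fewer clusters per transcript cannot be told apart. Their part in the Hsph1 value was not tested. Microglial and endothelial markers were at 0 in all TDP-43 libraries.

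The next largest changes in TDP-43 striatum were not called: Dnajb14 at −1.003 (adjusted p 0.376), Hspa8 at 0.78 (adjusted p 0.453) and Hsp90aa1 at 0.77 (adjusted p 0.207). The Hsp90 genes as a group were at 1.90 ± 0.254 clusters per kb in NT and 2.25 ± 0.614 in R6/2 libraries, a difference smaller than the R6/2 SD. Among the Hspa genes, Hspa5 was at 4.99 ± 1.39 and 5.76 ± 1.42 clusters, Hspa4 at 9.69 ± 1.40 and 9.77 ± 0.920, and Hspa9 at 3.36 ± 1.67 and 3.46 ± 2.13. None of these differences exceeded the SD. Among J proteins, Dnajc7 had 5.65 ± 1.29 and 6.34 ± 2.57 clusters, and Dnajb2 1.62 ± 0.689 and 2.27 ± 0.747.

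In TDP-43 cortex 24 members were tested and 0 called (limma, all genes 7.66%), with 2 members at an unadjusted p under 0.05, Dnajc21 and Hsp90ab1, against 22.1% of all genes. The median change was −0.10 for the members and −0.09 for all genes. Counting all listed clusters called 1 member, Dnajc6, as higher (0.35). Dnajc21, a J protein of ribosome assembly, was at −0.78 (SE 0.29, adjusted p 0.118), Hspa8 at 1.00 (SE 0.62, adjusted p 0.358), Dnaja4 at −0.95 (adjusted p 0.285) and Dnajb5 at −0.87 (adjusted p 0.234). Hsp90 clusters per kb were 2.63 ± 0.348 in NT and 3.53 ± 1.43 in R6/2 libraries. R6/2 female 4 stood apart at 6.97, where the next library was at 3.68, and it had the fewest enriched clusters of the set (15785). Hsph1, which fell in striatum, was at 9.81, 14.2 and 19.5 in NT and 7.61, 12.1 and 16.3 in R6/2 cortex (−0.28, not called). The difference between its striatal and cortical changes was −0.30 and was not called.

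In m6A striatum 38 members were tested and 3 called, all higher in R6/2 (all genes 9.64%), with medians of 0.03 for the members and 0.02 for all genes. Of all genes, 361 were called higher and 552 lower. Hspa8, the constitutive Hsp70, had 0, 1.01 and 3.18 clusters in NT and 1.69, 2.54 and 4.49 in R6/2 libraries (1.10, SE 0.30, adjusted p 0.0230), with no cluster in 2 NT libraries. Its R6/2 libraries alone met the minimum for testing, and most NT libraries were below it, which favours a change in this direction. The Hspa8 call rests on few clusters per library. Dnajc15, a J protein of the mitochondrial inner membrane, went from 3.01, 4.90 and 6.85 to 5.61, 6.80 and 9.13 (0.53, SE 0.13, adjusted p 0.0118). Dnajc6 went from 9.37, 10.9 and 16.1 to 12.5, 14.2 and 17.1 (0.36, SE 0.09, adjusted p 0.0161). For Dnajc6 the overlap came from NT male 2 alone (16.1), with the other NT libraries at 11.7 or lower. For each of these genes the ranges overlapped and the call held without each library in turn. Of these, Dnajc15 was also called in covered bases (0.27, adjusted p 0.00488), where Dnajc6 was at 0.10 (adjusted p 0.157) and Hspa8 at 0.66 (adjusted p 0.0710). With touching clusters joined, Dnajc15 was at 0.18 and Dnajc6 at 0.03, both not called. Hspa8 was at −0.14 over all listed clusters. Covered bases called 1 further member, Hspa13, an Hsp70-like protein of microsomes, as higher (0.30, adjusted p 0.00539), where its number of clusters was not called (0.29, adjusted p 0.0515). Medium spiny neuron markers summed to 164 to 210 in NT and 107 to 123 in R6/2 libraries, with all 9 found in both, and their part was not tested. Astrocyte markers summed to 102 to 114 and 88.7 to 99, with all 6 found, and oligodendrocyte, microglial and endothelial sums overlapped between genotypes.

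In m6A cortex 40 members were tested and 2 called, both lower in R6/2 (all genes 6.22%), with medians of 0.07 and 0.02. Of all genes, 218 were called higher and 331 lower. Dnajc10, a disulfide reductase with a J domain in the endoplasmic reticulum, went from 2.18, 4.44 and 6.39 clusters to 1.89, 2.66 and 3.32 (−0.64, SE 0.17, adjusted p 0.0259). Hspa1b, 1 of the paired inducible Hsp70 genes, went from 1.86, 2.13 and 3.30 to 0, 0.995 and 1.96 (−1.33, SE 0.36, adjusted p 0.0267), with no cluster in 3 R6/2 libraries. For Hspa1b the NT libraries alone met the minimum for testing, and its call rests on few clusters per library. Both ranges overlapped between genotypes. Dnajc10 was not called without NT female 1 (−0.55, adjusted p 0.0580), R6/2 female 4 or R6/2 male 1, and Hspa1b not without NT female 1, NT female 3, R6/2 female 2, R6/2 female 4 or R6/2 male 2 (−1.12 to −1.27). In covered bases Dnajc10 was at −0.11 (adjusted p 0.310) and Hspa1b at −1.13 (adjusted p 0.101), and Hspa13 alone was called there, as higher (0.30, adjusted p 0.0166). The neighbouring paralog Hspa1a was at 3.72, 5.47 and 6.79 in NT and 3.04, 4.44 and 6.14 in R6/2 libraries and was not called. Medium spiny neuron markers summed to 58.2 to 70.8 and 32.6 to 49.7 in these cortex libraries, astrocyte markers to 89.0 to 108 and 78.1 to 94.8, and the part of either was not tested.

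**Figure D3:**
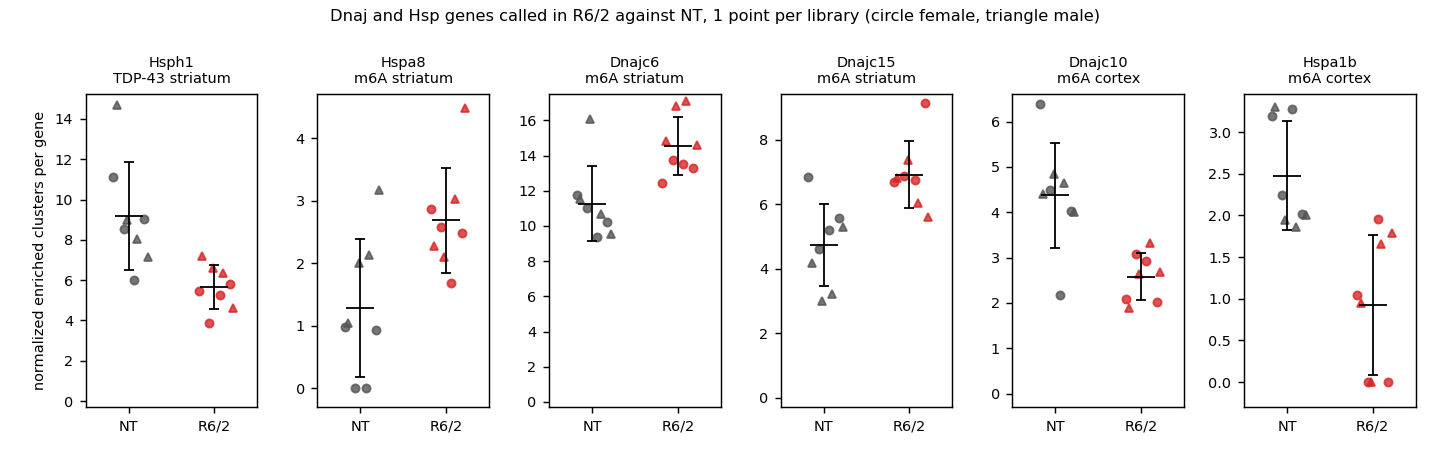
Normalized number of enriched clusters per library for the 6 chaperone genes called in R6/2 against NT, with mean and SD (circles females, triangles males, 8 libraries per group). Hsph1, Dnajc10 and Hspa1b are lower in R6/2 and Hspa8, Dnajc6 and Dnajc15 higher, and NT and R6/2 points overlap for all 6.

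By family, all 3 Hsp90 genes had positive changes in TDP-43 striatum and cortex (medians 0.16 and 0.33), and the 1 tested for m6A, Hsp90ab1, was at 0.22 in striatum and 0.09 in cortex, with none called. Over all genes tested, 1050 of 2220 were positive in TDP-43 striatum and 1561 of 3732 in TDP-43 cortex. In m6A striatum 8 of 9 tested Hspa genes were positive (median 0.19), all but Hspa8 not called, where 4995 of all 9473 genes were positive. J protein families had medians between −0.48 (Dnaja in TDP-43 cortex, 2 genes) and 0.49 (Dnaja in TDP-43 striatum, 1 gene). Hspb and Hspd1 with Hspe1 had too few TDP-43 clusters to be tested. The difference of the R6/2 change between striatum and cortex was tested as an interaction in limma. For TDP-43, 20 members were tested and 0 called (all genes 0.0690%), and 0 had an unadjusted p under 0.05, against 10.7% of all genes. For m6A, 41 were tested and 0 called (all genes 0.254%), with 5 at an unadjusted p under 0.05, against 7.86% of all genes: Dnajc10 (0.91, SE 0.24, adjusted p 0.108), Hspa1b (1.57, adjusted p 0.380), Hspa1a (0.92, adjusted p 0.240), Hspa5 and Hspbp1. The 6 called genes were thus not shown to respond differently in the 2 regions.

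**Figure D4:**
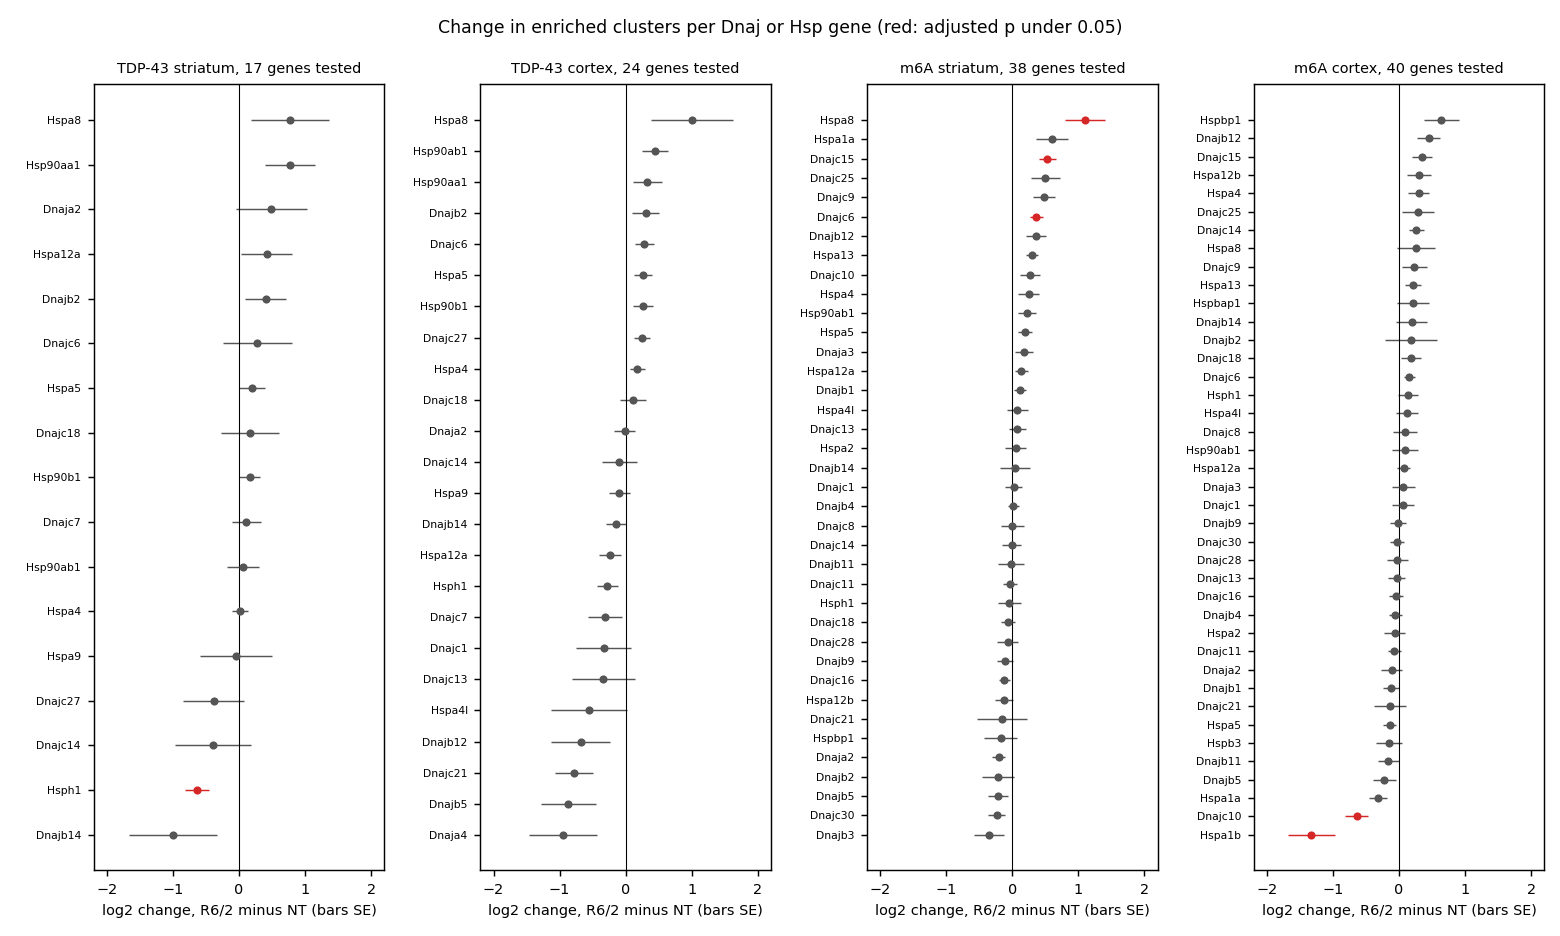
log2 change in enriched clusters, R6/2 minus NT, with standard error from limma, for every chaperone gene tested in each assay and region, ordered by change. Red points passed an adjusted p of 0.05: 1 of 17 in TDP-43 striatum, 0 of 24 in TDP-43 cortex, 3 of 38 in m6A striatum and 2 of 40 in m6A cortex.

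A total per gene could hide the loss of 1 position, so sites were also compared, by the number of libraries with an enriched cluster. No member site passed in any assay and region (0.00% of all sites in each of the 4), by an exact permutation of genotype within sex whose smallest p is 0.000408. Adjusted over 18547 to 40976 sites, 1 site that separated the genotypes fully could not pass unless many others did. The adjusted test therefore cannot show whether a single position was lost. At an unadjusted p under 0.05 there were 3 of 111 member sites in TDP-43 striatum, 7 of 244 in TDP-43 cortex, 1 of 145 in m6A striatum and 2 of 131 in m6A cortex. The numbers over all sites were 1104 of 18547, 1574 of 37155, 1221 of 40976 and 1177 of 37877. All 10 TDP-43 and both m6A cortex member sites had fewer R6/2 libraries. Among all sites at this p, 74.5% in TDP-43 striatum, 91.9% in TDP-43 cortex, 39.9% in m6A striatum and 35.6% in m6A cortex had fewer, and the site test was not scaled for the number of enriched clusters per library. A coding site of Hsp90ab1 in TDP-43 striatum (chr17:45570712-45570743) was enriched in 8 of 8 NT and 2 of 8 R6/2 libraries (exact permutation p 0.00612, adjusted p 0.613). A coding site of Hsp90b1 (chr10:86705326-86705349) was enriched in 6 NT and 0 R6/2 striatum libraries (exact permutation p 0.0102, adjusted p 0.613). It lies beside the TGTGT printed above but does not contain it. The wider cortex site (chr10:86705320-86705354), which contains both, was enriched in 8 and 4 (exact permutation p 0.0918). In TDP-43 cortex 3 of the 7 sites lay in the 3′ UTR of Dnajb5, at 7 and 2, 5 and 0, and 5 and 0 libraries. The exception was a 3′ UTR site of Dnajc1 in m6A striatum (chr2:18206757-18206824), with 0 NT and 6 R6/2 libraries (exact permutation p 0.0102, adjusted p 1). The Hspa1b site in m6A cortex (chr17:34957343-34957411, coding sequence) was enriched in 8 and 3 libraries.

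The ASO experiment asked how lowering TDP-43 affects m6A. As a check, Tardbp, which encodes TDP-43, had 17.3, 16.7 and 22.5 normalized m6A clusters with PBS and 7.45, 8.25 and 9.42 with ASO. This is a count of m6A clusters and not an RNA level. Of 44 members tested, 16 were called (limma, all genes 30.5%), 3 higher and 13 lower with ASO, with a median of −0.15 for the members and −0.02 for all genes. Of all genes, 1340 were called higher and 1676 lower. Microglial markers summed to 30.6 to 34.6 with PBS and 35 to 39.8 with ASO and cortical excitatory markers to 92.8 to 101 and 103 to 105, with all 4 and all 6 found, and their part was not tested. Clusters of this experiment had been called on 1 set of intervals per treatment, so treatment and interval set cannot be told apart, and the replicates carry the spread of scores on shared intervals alone.

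The gene that fell most was Hspa4l, an Hsp110 exchange factor. It had 12.5, 12.8 and 11.7 clusters with PBS and 5.32, 6.19 and 3.14 with ASO (−1.30, SE 0.22, adjusted p 0.00982). The bases covered on the gene were 465, 459 and 433 against 566, 593 and 292, which overlapped (0.03). Hsph1 had 9.62, 7.87 and 13.5 against 5.32, 4.12 and 4.19 clusters (−1.08, adjusted p 0.0125) and overlapping covered bases. Dnajb1 had 26.9, 27.5 and 25.2 against 20.2, 19.6 and 19.9 clusters (−0.41, SE 0.04, adjusted p 0.00223), and 790, 798 and 767 against 754, 745 and 749 bases. Its groups did not overlap in either quantity. Hspa1a had 7.69, 7.87 and 8.11 against 5.32, 5.15 and 5.24 clusters (−0.55, adjusted p 0.00286).

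Of the J proteins called lower, Dnajc8, a spliceosome-associated protein, changed most (−1.17, adjusted p 0.00423), followed by the mitochondrial Dnajc11 (−0.60, adjusted p 0.00171), Dnajc10 (−0.59), Dnajb12 of the endoplasmic reticulum membrane (−0.53), the mitochondrial Dnaja3 (−0.49), Dnajc18 (−0.30) and Dnajc14 (−0.21). Hspb3 (−0.40) and Hspa12a (−0.08) completed the list. Dnajc6 was higher, with 14.4, 14.7 and 14.4 clusters with PBS and 20.2, 19.6 and 20.9 with ASO (0.46, SE 0.04, adjusted p 0.00153), on 4 joined stretches in every library. Dnajc28 (0.47, adjusted p 0.0155) and Dnajb14 (0.97, adjusted p 0.0323) were higher as well. In covered bases all 16 changes lay between −0.16 and 0.19 on the log2 scale, 10 in the same direction and 6 in the opposite one, and Hspa12a alone was called (−0.12, adjusted p 0.0229). With touching clusters joined, 2 were called, Dnajb1 (−0.29) and Dnajb12 (−0.90). Dnaja3, Dnajb14, Hspa12a, Dnajb12 and Dnajc14 were not called when most single libraries were left out.

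**Figure D5:**
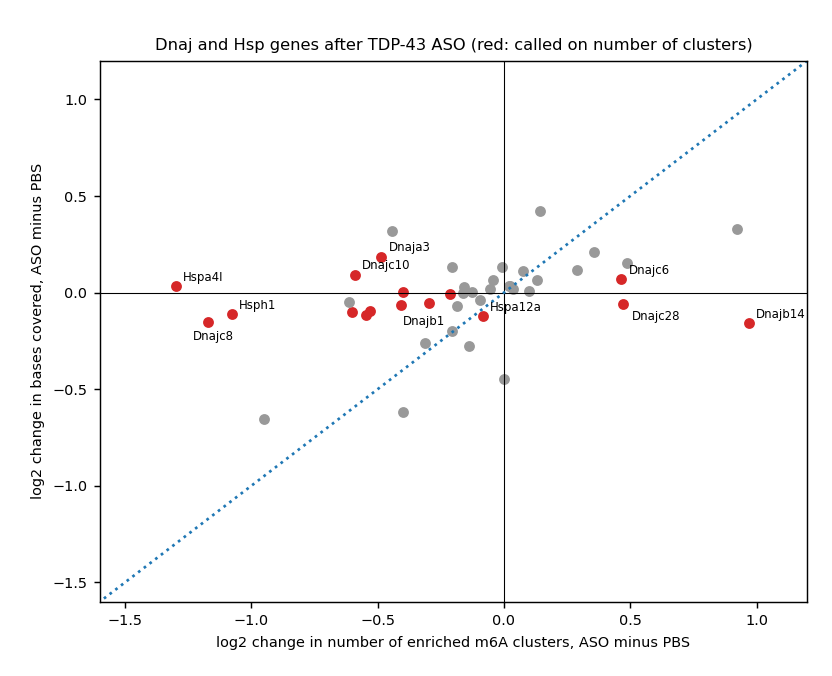
log2 change with ASO in the number of enriched m6A clusters (horizontal) and in the bases they cover (vertical) for the chaperone genes tested, 3 libraries per treatment (red, the 16 called on the number of clusters; dotted line, equal change). The red points spread between −1.30 and 0.97 horizontally and between −0.16 and 0.19 vertically.

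Other genes of the folding machinery were taken from textbook lists, and their R6/2 counts stand against 14.3%, 7.66%, 9.64% and 6.22% of all genes called in TDP-43 striatum, TDP-43 cortex, m6A striatum and m6A cortex. Counts at an unadjusted p under 0.05 stand against 26.8%, 22.1%, 23.1% and 20.9% of all genes, in the same order. Of 26 Hsp70 and Hsp90 co-chaperones, 8 were tested in TDP-43 striatum and 1 fell, Tomm70a (−1.23), the mitochondrial receptor for chaperone-bound precursors (median −0.29). In TDP-43 cortex 14 were tested and Sugt1 fell (−1.001, median −0.14). In m6A striatum 17 were tested, Unc45a rose (0.48) and Bag5 fell (−0.28), and in m6A cortex none of 15 was called, with 2 at an unadjusted p under 0.05. Of the 14 subunits of TRiC and prefoldin, cytosolic chambers and carriers for actin and tubulin, none of the 4 to 8 tested in each R6/2 comparison was called in limma, with 2 at an unadjusted p under 0.05 in m6A cortex and 0 elsewhere. Of 14 endoplasmic reticulum chaperones and stress genes, Atf6, a sensor of unfolded proteins, fell in TDP-43 cortex (−1.65, 7 tested), and none of the 3 in TDP-43 striatum, 12 in m6A striatum and 12 in m6A cortex was called, with 1, 1 and 0 at an unadjusted p under 0.05. Hsf1, Hsf2 and Hsf4, the factors that induce heat shock genes, had 2 genes with enough m6A clusters to be tested and 0 called, with 1 at an unadjusted p under 0.05 in m6A striatum and 0 in cortex. With ASO, where 30.5% of all genes were called, 4 of 19 co-chaperones fell, among them Ahsa1 (−1.37) and Ppid (−1.15), both partners of Hsp90, 3 of 9 TRiC and prefoldin genes fell and 1 rose, and 1 of 12 endoplasmic reticulum genes went each way.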

How the data were processed

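TDP-43 and m6A eCLIP libraries of mouse cortex and striatum were analysed from 70 IP cluster lists. The authors called clusters with CLIPper on mm10 (versions not given in the sources used here) and scored each against its input library. The deposited values were a −log10 p, from 0 to 400, and a log2 fold of IP over input. No reads were used, so the lists give no read depth, and precision follows from the number of libraries and of enriched clusters in each.

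A cluster was assigned to the GENCODE vM21 gene holding its midpoint on its strand. Enriched clusters (p of 0.001 or less) per gene were divided by median-ratio size factors of the libraries compared, and log2 was taken after adding 0.5, which understates changes of genes with few clusters. Genes with at least 2 enriched clusters in 50% of the libraries were tested with limma 3.58.1 (R 4.3.3; lmFit, then eBayes with a trend) with sex as a covariate, and p-values were adjusted by Benjamini-Hochberg over all genes tested. Genes below this minimum, all Hspb genes for TDP-43 among them, were described by their values and not tested. A gene could pass the minimum through a single group alone, which favours a difference toward that group. Sites were compared by exact two-sided permutation of genotype within sex (4900 labelings), adjusted over all sites. Python 3.11.15 with NumPy 2.4.6, pandas 2.3.3, pysam 0.24.0 and matplotlib 3.10.9 did the remaining work. The gene and site tests were run on simulated data, with values drawn independently for each library. Those data held neither intervals shared within a treatment nor touching clusters, so they do not bear on these features. Nothing in the labels says that same-numbered libraries come from 1 animal. Each library was taken as a separate animal or extract as labelled, and p-values measure the spread between these libraries.

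The members, the gene lists and the tests were chosen with earlier results of these data known. Genes named were those called in a comparison, those with the largest changes up to 4 where fewer were called, the 5 with the most clusters per kb in each assay and region, and a set list of well-known members. Genes named for which assay marked them, for their sites or for the presence of a mark were chosen after their values were seen. Alternatives were all listed clusters, the study's thresholds (p under 0.001 and log2 fold above 3), exonic clusters, covered bases, 1 added, total scaling, quantile normalization, no filter, each sex, the intronic share, library exclusions, leaving out each library, and the replicate block. Joining touching clusters before counting was added after seeing that 18.9% to 65.9% of clusters touched another.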

Additional observations from a re-analysis of the deposited data

Results flagged for a closer look

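Of 135 groups of 8 values, 6 held a value farther from the others than Dixon's 95% limit allows, which chance gives in about 1 of 20 groups. Dnajb3 in m6A cortex stood at 2.18 clusters in NT female 3, with the nearest library at 1.12. Dnajc18 for TDP-43 stood at 3.85 in cortex in NT male 3 (nearest 7.63) and at 5.18 in striatum in NT female 1 (nearest 2.78). Dnajc6 in m6A striatum stood at 16.1 in NT male 2 (nearest 11.7), above 6 of the 8 R6/2 libraries, and its R6/2 call held without that library. Hspa12a for TDP-43 in striatum stood at 0 in NT male 1 (nearest 3.27), a library with fewer than 10000 enriched clusters. The Hsp90 family for TDP-43 in cortex stood at 6.97 clusters per kb in R6/2 female 4 (nearest 3.68), the library with the fewest enriched clusters of that set (15785).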

How the results depend on the processing

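Few member calls in R6/2 survived a change in what was counted. In TDP-43 striatum the 1 call (Hsph1) became 0 at the study's thresholds, in covered bases, without a filter, in males alone, with the intronic share as covariate and without the libraries of at least 30% intronic clusters, and all listed clusters gave 10. In TDP-43 cortex 0 became 1 with all listed clusters. In m6A striatum 3 became 0 with all listed clusters, at the study's thresholds, with touching clusters joined and in females alone, and 1 in males alone. In m6A cortex 2 became 0 with all listed clusters, at the study's thresholds, with touching clusters joined and in either sex alone, and covered bases called neither of these but 1 other gene, Hspa13, in the opposite direction. With ASO 16 became 45 with all listed clusters, 0 at the study's thresholds, 1 in covered bases and 2 with touching clusters joined. Between NT regions, 10 TDP-43 calls became 3 with all listed clusters, 6 at the study's thresholds and 18 without a filter, and 5 m6A calls became 2 with all listed clusters and 0 at the study's thresholds. Fewer samples or fewer clusters enter some of these settings, and otherwise the cause was not tested. In TDP-43 striatum no R6/2 female remained once the libraries of at least 30% intronic clusters were left out.

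Leaving out 1 library gave 1 to 1 calls in TDP-43 striatum, 0 to 0 in TDP-43 cortex, 3 to 4 in m6A striatum, 0 to 3 in m6A cortex and 11 to 16 with ASO. Correlations of the deviations of same-numbered libraries ran from −0.45 to 0.46 over R6/2 and NT pairs, −0.11 to 0.28 over TDP-43 cortex and striatum pairs, and 0.02 to 0.09 over m6A cortex and striatum pairs, all 8 of which were positive. In no comparison was every pair above 0.1, and whether 1 number marks 1 mouse across regions is not given in the labels, so the numbers were not taken to pair the samples. With the replicate block ASO calls were 10, TDP-43 region calls 9 (without Hsp90b1) and m6A region calls 4 (without Dnajb3), and the R6/2 counts were 1, 0, 3 and 2 as without it.

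Direction was reversed in 19 of 819 values of named genes. In TDP-43 striatum Dnajb14 was at 0.17 in males alone (−2.18 in females), 1.56 with the intronic share and 1.12 without the libraries of at least 30% intronic clusters, and Hspa8 at −0.0220 with all listed clusters and −0.0171 in females alone. With all listed clusters Dnaja4 in TDP-43 cortex was at 0.12, Hspa8 in m6A striatum at −0.14, Hspa4l, Dnajc14 and Dnajc27 between NT regions at −0.0465, −0.12 and −0.11, and Hspa4l in the TDP-43 interaction at −0.12. With ASO, covered bases gave Dnajc10 0.0938, Hspa4l 0.0337, Dnajb14 −0.16, Hspb3 0.0014, Dnaja3 0.19 and Dnajc28 −0.0567, joined clusters gave Dnajc28 −0.0410, and the study's thresholds gave Hspb3 0.58.

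Counts over all genes moved too. The 318 calls in TDP-43 striatum became 27 without the libraries of at least 30% intronic clusters, 101 with the intronic share, 3 in males, 72 at the study's thresholds and 1233 with all listed clusters. The 286 in TDP-43 cortex became 104 at the study's thresholds, 94 in males, 41 in females, 84 with the intronic share, 128 with the replicate block and 160 with clusters joined. The 913 in m6A striatum became 520, 3 and 157, and the 549 in m6A cortex 290, 3 and 106, with all listed clusters, at the study's thresholds and with clusters joined. The 3016 with ASO became 9099, 5 and 667 in that order, 401 in covered bases and 1956 with the block. With 27 to 149 enriched clusters on members per TDP-43 striatum library, members with few clusters could not be tested there.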
